A study of Mus musculus with 1931 samples.

Results

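The extraembryonic ectoderm (ExE)-like cells of the RtL-embryoids were taken by the place into which they had been sorted, without any clustering. They are the wells numbered 17 to 24 of plates 3, 4 and 5 that have at least 2500 genes above 0 TPM (length-corrected transcript abundance scaled to a fixed sum per library), after removal of wells in which both VE genes *Amn* and *Cubn* were found. Of 384 such wells, 336 remained, with 118, 108 and 110 cells on plates 3, 4 and 5, among 1149 wells of the RtL-embryoids and 1931 wells of the whole experiment. They are called the ExE-like cells in the following and were compared on each plate with the 629 cells of wells 1 to 16 that reached the same number of genes.

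RtL-embryoids were built from 3 mouse embryonic stem cell (ESC) lines. The ExE-like compartment is held to come from 5-Factor ESCs (5F-ESC), whose transgenes, inducible by doxycycline (DOX), encode EOMES, CDX2, GATA3, TFAP2C and ETS2. Kermit ESCs, with GFP under the control of *Oct3/4*, are held to give the epiblast (Epi)-like compartment, and mCherry-transduced iGATA6 ESCs, in which DOX induces *Gata6*, the visceral endoderm (VE)-like one, an origin not tested here. All lines in a structure received DOX at 2 µg/ml for 3 days and were then kept for 24 h without it, before structures picked by hand were pooled, dissociated, stained for the surface protein CD40 and sorted. Cells of the ExE gate were CD40-positive and negative for GFP and mCherry. Each well was meant to hold a single cell, no doublet caller was run, and no 2 of the cells used here had identical values. For a side view, 141 iTSC were used, which are induced trophoblast stem cells grown in 2D from 5F-ESCs.

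All ExE-like cells come from 1 pool of structures and count as 1 sample, of which the plates are technical splits. A test needs independent pools, so differences are described by their size on each plate, without p-values. Intervals are exact 95% Clopper-Pearson intervals and cover counting error only. The labels give the plate and well number of each cell but neither its sort gate nor its ESC line. That a block of wells stands for a gate and a line was taken from the rule and looked at by marker genes. Gate, well number and line cannot be told apart.

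The ExE is the trophoblast tissue that lies on the epiblast of the early mouse conceptus and holds the trophoblast stem cells. The factors CDX2, EOMES, TFAP2C, GATA3 and ELF5 sustain its stem cell state, FGF4 from the epiblast is needed for it, and the ExE in turn sends BMP4 to the epiblast. Away from the epiblast, ExE passes into the ectoplacental cone, in which trophoblast differentiates, and further into polyploid giant cells.

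The selection rests on few wells near its limits. Of the 384 wells, 31 were below the minimum, with a median of 37 genes, and these had at most 2314 genes, whereas the ExE-like cell with the fewest had 2526 and the next 2936. *Amn* and *Cubn*, which encode the endocytic receptor pair of the VE, were found together in 17 wells, of which plate 4 held 9 and the other plates 4 each. Of genes that the rule did not use, *Gata4* was found in 16 of the removed wells, *Sox17* in 13, *Sparc* in 17, *Pou5f1* in 11, *Eomes* in 8, *Cd40* in 7, and *Cdx2* and *Gata3* each in 0. Among wells 9 to 16 the pair was found in 297 of 315 cells and among wells 1 to 8 in 0 of 314. In the ExE-like cells *Amn* without *Cubn* was left in 27 cells and *Cubn* without *Amn* in 10.

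The wells compared with them were cut by number alone. Wells 1 to 8 (314 cells) expressed Epi genes, with *Pou5f1* in 99.7% and *Tdgf1* in 95.5% of cells. By share *Pou5f1* was not particular to them, as wells 9 to 16 had it in 84.4% to 97.1% of cells by well number. Wells 9 to 16 (315 cells) expressed VE genes, with *Gata4* in 98.1% and *Sox17* in 86.7%. TPM keep no read number, so the number of genes above 0 stands for depth. On plates 3, 4 and 5 its median in the ExE-like cells was 6662.5, 5127.5 and 4512, against 5710, 4448 and 4199 in wells 1 to 8 and 6622, 4913 and 4957 in wells 9 to 16. The ExE-like cells were thus as deep as or deeper than the Epi-like wells of their own plate. Plates 3 and 5 of the ExE-like cells were 2-fold apart in mean level for 0.724% of 8569 genes, which was the largest share of the 3 plate pairs.

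The given ExE markers *Id2*, *Cdx2*, *Tfap2c*, *Igf2* and *Krt8* were higher in the ExE-like cells than in wells 1 to 16 on every plate, by at least 2-fold. Levels are given as TP10k, which are TPM rescaled to a sum of 10000 in each cell. *Id2* (chr12:25093799-25097140, minus strand, GRCm38), an inhibitor of basic helix-loop-helix factors, had means of 8.94, 9.19 and 10.1 on plates 3, 4 and 5. It was found in 94.6% of cells (95% interval 91.7 to 96.8), and its mean was 0.384 in wells 1 to 8 and 0.554 in wells 9 to 16. *Id2* was thus far above both neighbours on all plates, and it was found in 87.5% to 100% of the ExE-like cells at each of the 8 well numbers.

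*Cdx2* (chr5:147300805-147307270, minus strand), the caudal-type homeobox factor of trophectoderm, was found in 75.4%, 58.3% and 59.1% of cells on plates 3, 4 and 5. In wells 1 to 8 the share was 0.318% and in wells 9 to 16 it was 2.86%. Its mean level in the ExE-like cells was 0.833, 0.518 and 0.604 TP10k on the 3 plates. *Igf2* (chr7:142650766-142666816, minus strand), a paternally expressed growth factor gene, had means of 6.73, 8.34 and 5.28 TP10k and was found in 78.0% of the ExE-like cells. The VE-like wells also had *Igf2* in 52.4% of cells, at a mean of 0.687 TP10k, and wells 1 to 8 in 2.55%.

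*Tfap2c* and *Krt8* separated the ExE-like cells from only 1 of the neighbours by share. *Tfap2c* (chr2:172549593-172558622, plus strand), an AP-2 factor, was found in 60.7% of ExE-like cells, in 39.5% of cells in wells 1 to 8 and in 3.49% in wells 9 to 16. Its mean was 1.33, 0.918 and 0.820 TP10k on plates 3, 4 and 5, and it was not 2-fold above wells 1 to 8 on each plate, where the mean was 0.446. *Krt8* (chr15:101996698-102004482, minus strand), a keratin of simple epithelia, had means of 5.19, 6.16 and 4.29 TP10k. It was found in 73.8% of ExE-like cells but in 91.4% of wells 9 to 16, whose mean was lower at 2.07 TP10k. In *Krt8* the ExE-like cells thus had the higher mean and the smaller share of positive cells.

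**Figure D1:**
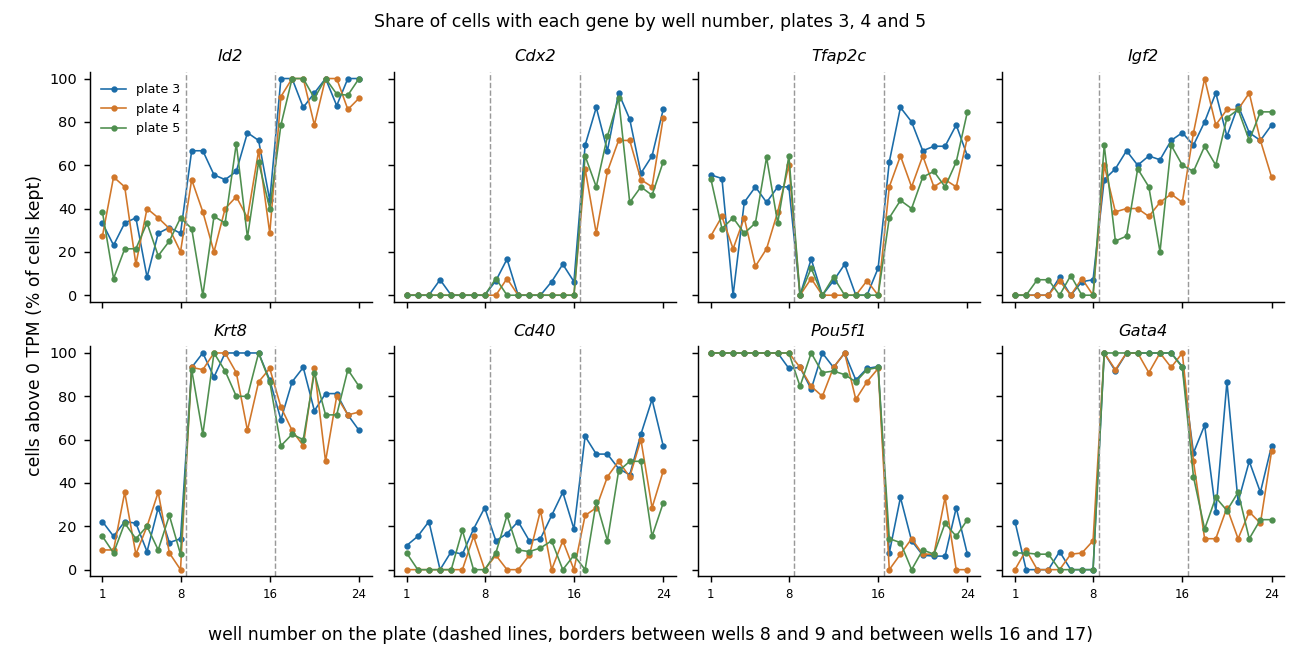
Share of cells above 0 TPM (y axis, percent of cells kept) by well number (x axis, 1 to 24) for single genes, 1 line for each of plates 3, 4 and 5, without the wells removed for *Amn* and *Cubn*. The share of *Id2* and *Cdx2* steps up between wells 16 and 17 on all 3 plates, while *Pou5f1* is near 100% in wells 1 to 8. Over the 3 plates together *Pou5f1* is at 84.4% to 97.1% in wells 9 to 16 and below 21% in each of 17 to 24.

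**Figure D2:**
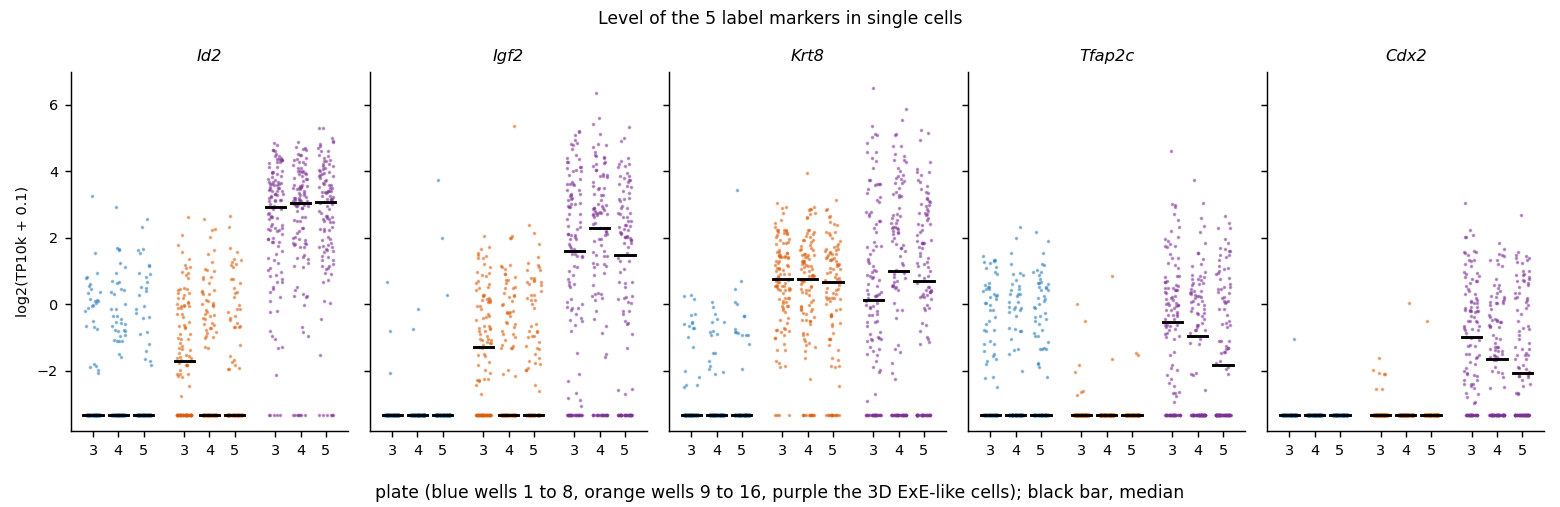
Level of the 5 given markers in single cells, log2(TP10k + 0.1), by plate (x axis), for wells 1 to 8 (blue), wells 9 to 16 (orange) and the ExE-like cells (purple), with the median as a black bar. The median *Id2* level of the ExE-like cells was 7.59, 8.25 and 8.28 TP10k on plates 3, 4 and 5, above the bulk of the other cells, while *Krt8* overlaps with wells 9 to 16.

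The 5 genes of the transgenes were all higher than in wells 1 to 16 on every plate, and *Cdx2*, *Eomes* and *Gata3* also than each well block. The deposited values do not separate transcripts of the transgene from those of the gene itself, and these cells had been without DOX for 24 h. *Gata3*, a zinc finger factor of trophectoderm, had means of 1.05, 0.664 and 0.848 TP10k and was found in 56.2% of cells, against 2.23% and 4.44% in wells 1 to 8 and 9 to 16. *Eomes*, a T-box factor, had means of 0.474, 0.423 and 0.547 TP10k and was found in 55.7% of cells, and it was also found in 23.8% of wells 9 to 16. *Ets2*, an ETS factor, differed least, with a mean of 0.419 TP10k against 0.138 and 0.0989.

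Few ExE-like cells had all of these 5 genes above 0. All 5 were found in 57 of 336 cells (interval 13.1% to 21.4%), at least 3 in 205 (61.0%) and none in 23 (6.85%). In wells 1 to 8 at least 3 were found in 3 cells and in wells 9 to 16 in 4 cells. Of the 5 given ExE markers, at least 4 were found in 205 of the ExE-like cells, in 1 cell of wells 1 to 8 and in 9 cells of wells 9 to 16. *Eomes* was found in 65.4% of the 217 ExE-like cells with *Cdx2* (58.7 to 71.8) and in 37.8% of the 119 without (29.1 to 47.2). Cells with more genes found had these genes more often, as on plate 5, where *Eomes* was in 32.7% of cells below the plate's median number of genes and in 70.9% of those at or above it. The part of depth in the joint finding of these genes was not tested.

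*Cd40*, the gene of the antigen used for the sort, was found in 56.8%, 40.7% and 29.1% of ExE-like cells on plates 3, 4 and 5. Its mean level changed less, from 0.742 and 0.756 to 0.631 TP10k. In wells 1 to 8 the share was 6.05% and in wells 9 to 16 it was 12.1%. Since the sort used this protein, its gene is no finding of its own. Within the ExE-like cells, those with *Cd40* had *Cdx2* in 70.6% (62.4 to 77.9) and those without in 60.1% (52.8 to 67.1), and *Id2* in 95.1% and 94.3%.

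Across all genes, differences were counted where the log2 ratio of mean TP10k, with a pseudocount of 0.1, was at least 1 in size on plates 3, 4 and 5 alike, which is a fold of 2. Of 8569 genes whose share of positive cells reached 25% in the ExE-like cells or in wells 1 to 16, 260 (3.03%) were higher in the ExE-like cells than in wells 1 to 16 and 245 (2.86%) were lower. The median log2 ratio of all these genes was 0.06. Against wells 1 to 8 and wells 9 to 16 taken separately, 166 genes (1.94%) were higher than both and 27 (0.315%) were lower than both. The genes were next ranked by the least extreme of the 6 log2 ratios formed by 3 plates and 2 well blocks.

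*Pla2g7*, the gene of platelet-activating factor acetylhydrolase, stood first, with a least log2 ratio of 5.47. Its means were 8.49, 7.28 and 11.5 TP10k on plates 3, 4 and 5, against 0.0432 in wells 1 to 8 and 0.0817 in wells 9 to 16, and it was found in 73.2% of the ExE-like cells. *Selenbp1*, the gene of a selenium-binding protein, came next with means of 6.82, 4.40 and 4.71 TP10k and a least log2 ratio of 5.07. *Sct*, which encodes the peptide hormone secretin, had means of 19.4, 10.5 and 10.3 TP10k and a least log2 ratio of 4.89. All 3 genes were found in under 11% of the cells of each compared block.

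The following genes were those of *Saa3*, an acute phase protein, *Tspan1*, a tetraspanin, and *Id2*, then *Cldn3*, *Pgam2*, *Slc39a2*, *Tifa*, *Igf2*, *Anxa3*, *Krt19*, *Blnk* and *Fbp2*. Their least log2 ratios ran from 4.28 for *Saa3* to 2.84 for *Fbp2*. *Tspan1* was found in 47.9% of ExE-like cells with means of 2.61, 2.36 and 2.81 TP10k, and in 1.27% and 0.952% of the cells of the compared blocks. *Tifa*, an adaptor of NF-kappaB signalling, was found in 47.6% and in 0.318% and 4.13%, respectively. *Pgam2* and *Fbp2*, which encode muscle-type isoforms of glycolytic and gluconeogenic enzymes, were found in 28.3% and 38.7% of ExE-like cells. Apart from *Id2* and *Igf2*, none of these 15 genes was among the given markers.

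Lowest against both blocks was *Dppa5a*, a KH-domain gene of pluripotent cells, with means of 2.85, 1.43 and 2.08 TP10k in the ExE-like cells, 238 in wells 1 to 8 and 70.8 in wells 9 to 16. Its log2 ratio was at most -4.60. *Tdh*, the threonine dehydrogenase of mouse ESCs, was found in 3.57% of ExE-like cells and in over 93% of the cells of either block. *Pou5f1*, *Tcl1*, *Fbxo15*, *Nid2*, *Apoe*, *Dnmt3l*, *Zscan10* and *1700019D03Rik* completed the 10 lowest, the last with a greatest ratio of -1.45. Of these, *Apoe* kept the highest level, at 7.14 TP10k against 30.4 and 51.6.

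**Figure D3:**
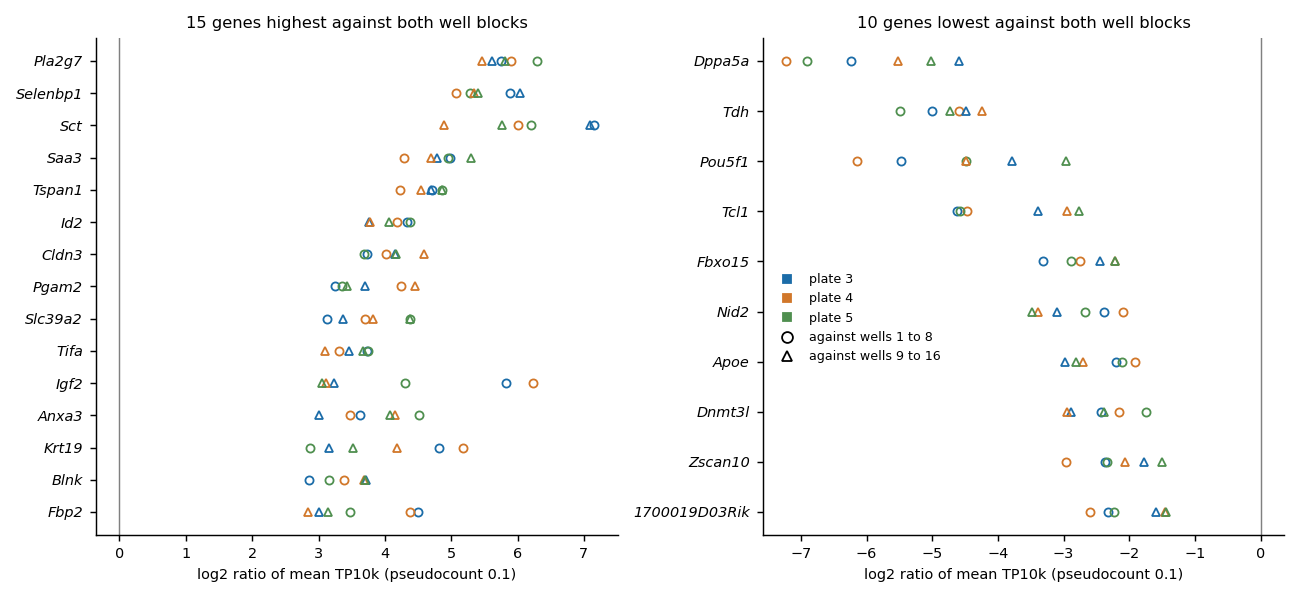
Log2 ratio of mean TP10k (x axis, pseudocount 0.1) of the ExE-like cells over wells 1 to 8 (circles) and wells 9 to 16 (triangles) on plates 3, 4 and 5 (colours), for the 15 genes highest and the 10 lowest against both blocks (y axis). All points of the upward genes lie at 2.84 or more and all points of the downward genes at -1.45 or less, and *Igf2* and *Sct* spread most among the upward ones.

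The upstream sequences of the highest genes are shown because the transgenes encode DNA-binding factors. The 250 bases before the RefSeq transcription start (GRCm38.p6, strand of the gene, 5′ to 3′) were searched on both strands for 5 short motifs of the factor families AP-2, GATA, CDX, ETS and T-box, spelled out after the sequences, with matches in capitals. Given are the first 3 of the ranked genes whose stretch overlaps no annotated exon.
Sct upstream, chr7:141279134-141279383: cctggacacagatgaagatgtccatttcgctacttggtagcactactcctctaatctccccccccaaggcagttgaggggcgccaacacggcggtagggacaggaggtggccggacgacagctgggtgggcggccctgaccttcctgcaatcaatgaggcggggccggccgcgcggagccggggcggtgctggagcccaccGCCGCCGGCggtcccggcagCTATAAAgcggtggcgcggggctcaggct
Cldn3 upstream, chr5:134985964-134986213: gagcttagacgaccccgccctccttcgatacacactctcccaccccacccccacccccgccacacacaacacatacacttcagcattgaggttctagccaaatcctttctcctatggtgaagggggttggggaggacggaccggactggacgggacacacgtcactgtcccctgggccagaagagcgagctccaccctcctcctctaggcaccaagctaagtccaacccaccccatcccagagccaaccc
Pgam2 upstream, chr11:5803797-5804046: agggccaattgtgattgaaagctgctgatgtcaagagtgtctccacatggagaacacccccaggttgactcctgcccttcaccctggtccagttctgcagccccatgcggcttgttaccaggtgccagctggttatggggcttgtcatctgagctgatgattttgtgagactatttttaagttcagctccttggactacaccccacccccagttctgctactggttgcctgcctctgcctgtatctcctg
*Sct*, on the minus strand, held 1 AP-2 and 1 CDX match, of which the latter was found on the opposite strand and, as printed, contains the letters of a TATA box. *Cldn3*, on the plus strand, and *Pgam2*, on the minus strand, held no match to any of the 5 motifs. Of the 166 genes higher than both blocks, 133 had an upstream stretch, and 25.6% of these held the AP-2 letters (GCCNNNGGC), against 21.3% of the 6989 tested genes with a stretch and 13.6% of all 27025. The CDX letters (TTTATNG) were in 8.27% of the genes higher than both blocks and in 5.62% of the tested genes. The GATA letters (AGATAA) were in 4.51% of the former and 5.22% of the latter. For the ETS letters (CCGGAAG) the shares were 6.02% and 16.3%, and the T-box letters (AGGTGTGA) were in 0 of the genes higher than both blocks and in 0.587% of the tested genes. These shares are descriptions of letters, and a match is not a binding site.

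For the gene lists below, the shares over all 8569 tested genes were 3.03% higher and 2.86% lower than wells 1 to 16. Against both blocks these shares were 1.94% and 0.315%. A gene could be tested through either group alone. This favours lower calls for genes rare in the ExE-like cells and higher calls for genes rare in wells 1 to 16. Among regulators of trophoblast, 6 of 14 tested genes were higher than wells 1 to 16 on every plate and 1 was lower, with a median log2 ratio of 0.55. Beside the genes of the transgenes this was *Elf5*, an ETS factor of the trophoblast stem cell state that no transgene carried. *Elf5* had means of 0.411, 0.797 and 0.799 TP10k and was found in 34.8% of ExE-like cells, against 5.73% and 9.52% of the compared blocks. *Esrrb*, shared by ESCs and trophoblast stem cells, was found in 72.9% of ExE-like cells at 0.493 TP10k, between wells 1 to 8 (0.785) and wells 9 to 16 (0.0594). *Sox2*, which has a role in both as well, lay in the same order at 0.324, 1.05 and 0.0229 TP10k. *Gata2*, at 0.197 TP10k in the ExE-like cells and found in 2.23% and 0.317% of the blocks, did not reach the share needed to be tested.

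Genes listed for signals in and around the ExE were partly higher. Of 14 listed genes 9 were tested, of which *Bmp4*, *Bmp8b*, *Wnt7b* and *Igf2* were higher than both blocks and *Nodal* was lower than wells 1 to 16, with a median log2 ratio of 0.43. *Bmp4* had means of 0.769, 1.15 and 1.06 TP10k but was found in only 31.0% of ExE-like cells (26.0 to 36.2), so that its level came from a minority of cells. *Bmp8b*, a related ligand, was found in 34.2% and *Wnt7b* in 28.6%. *Furin* and *Pcsk6*, proteases that process NODAL, were not 2-fold apart, at 0.0775 and 0.0524 TP10k. Both lie below the pseudocount of 0.1, so a call of 2-fold higher was not possible for them. *Nodal* itself, which is also among the primed genes below, was found in 6.55% of ExE-like cells and in 56.4% of wells 1 to 8.

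On the receiving side of BMP signals, *Id2*, *Id3*, *Smad6* and *Msx1* were higher than both blocks, 4 of 12 tested genes, and none was lower, with a median of 0.70. *Id3*, a relative of *Id2*, was at 3.07, 2.85 and 2.38 TP10k against 0.793 and 0.781. *Smad6*, an inhibitory SMAD, was found in 59.2% of ExE-like cells and in 7.01% and 8.25% of the blocks. *Id1*, of the same family, was not above wells 9 to 16, at 1.19 against 1.91 TP10k. Of the receptors, *Bmpr1a* was at 0.237 TP10k against 0.126 and 0.189.

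Of the FGF and ERK genes, 1 of 12 was higher and 1 lower, with a median of 0.36. Over all tested genes these shares were 3.03% and 2.86%. The higher gene was the receptor *Fgfr1*, at 1.03, 0.967 and 0.953 TP10k, which was found in 85.7% of ExE-like cells. *Fgfr2*, the receptor linked to trophoblast stem cells, was at 0.607, 1.02 and 0.797 TP10k and did not reach 2-fold on plate 3, where the log2 ratio was 0.70. The ligand *Fgf4* was found in 0 of 336 ExE-like cells, a count that allows a share of up to 0.893% by the limit of 3 counts and of up to 1.09% by the exact interval, and in 86.6% of wells 1 to 8. The feedback genes *Spry2* and *Spry4* were found in 92.3% and 54.2% of ExE-like cells, and neither was 2-fold apart from wells 1 to 16.

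Genes of ectoplacental and later trophoblast differentiation were found in a minority of cells. Of 18 listed genes 7 were tested, and *Hand1*, *Rhox6*, *Rhox9* and *Plet1* were higher than wells 1 to 16 on every plate, none lower, with a median of 1.71. *Hand1*, a factor of giant cell differentiation, was found in 28.3% of ExE-like cells at 0.880 TP10k and in under 2% of the other wells. *Rhox6* and *Rhox9* were at 2.49 and 1.72 TP10k, and as close paralogs their reads could have been split between them. *Plet1*, a surface protein of ExE, was found in 33.9% of ExE-like cells and in 43.8% of wells 9 to 16. *Ascl2* and *Tpbpa*, markers of the ectoplacental cone and its derivatives, were found in 7.44% and 5.65% of ExE-like cells, and *Gcm1*, of the labyrinth, in 2.38%.

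Of 12 listed giant cell genes 2 were tested, 1 higher (*Hand1*) and 1 lower (*Plac8*), and 5 were at 0 in every ExE-like cell, among them the placental lactogen gene *Prl3b1*. *Prl3d1*, the defining placental lactogen of primary giant cells, was found in 0.298% of cells. *Mmp9*, a protease of invading trophoblast, was found in 14.3% of ExE-like cells at 0.214 TP10k.

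Epithelial genes were one of the groups with the most members higher, beside a share of 3.03% over all tested genes. Of 18 tested, 8 were higher than wells 1 to 16 and none lower, with a median log2 ratio of 1.04. These were the keratins *Krt8*, *Krt18* and *Krt19*, the adhesion genes *Cdh1* and *Epcam*, the tight junction genes *Cldn3* and *Cldn4*, and *Perp* of desmosomes. *Krt19* was at 2.93, 3.51 and 1.77 TP10k and found in 0.637% of wells 1 to 8 and 9.84% of wells 9 to 16. *Cldn4* was at 8.82 TP10k against 2.12 and 0.0582, whereas *Cldn6* was at 3.44 against 0.903 and 4.77. *Jup*, the gene of plakoglobin, had the lowest ratio of this group at -0.93, with 0.331 TP10k against 0.741 and 0.705.

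A similar share was seen for the actin cytoskeleton, annexins, S100 proteins and galectins, where 8 of 21 were higher and none lower, with a median of 0.90. *Tmsb4x*, the gene of an actin monomer-binding peptide, was at 10.8 TP10k against 2.31 and 1.61, and the tropomyosin gene *Tpm1* at 4.47 against 0.786 and 1.36. *Anxa3* was at 1.47, 2.61 and 2.19 TP10k, *S100a6* at 1.10, 1.22 and 0.586. The galectin gene *Lgals1* was found in 91.4% of ExE-like cells at 7.82 TP10k, against 0.968 and 0.808. *Ezr*, *S100a11* and *Lgals3* were the other higher genes. *Actb* itself, at 77.4 TP10k, lay between wells 1 to 8 (60.3) and wells 9 to 16 (108).

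**Figure D4:**
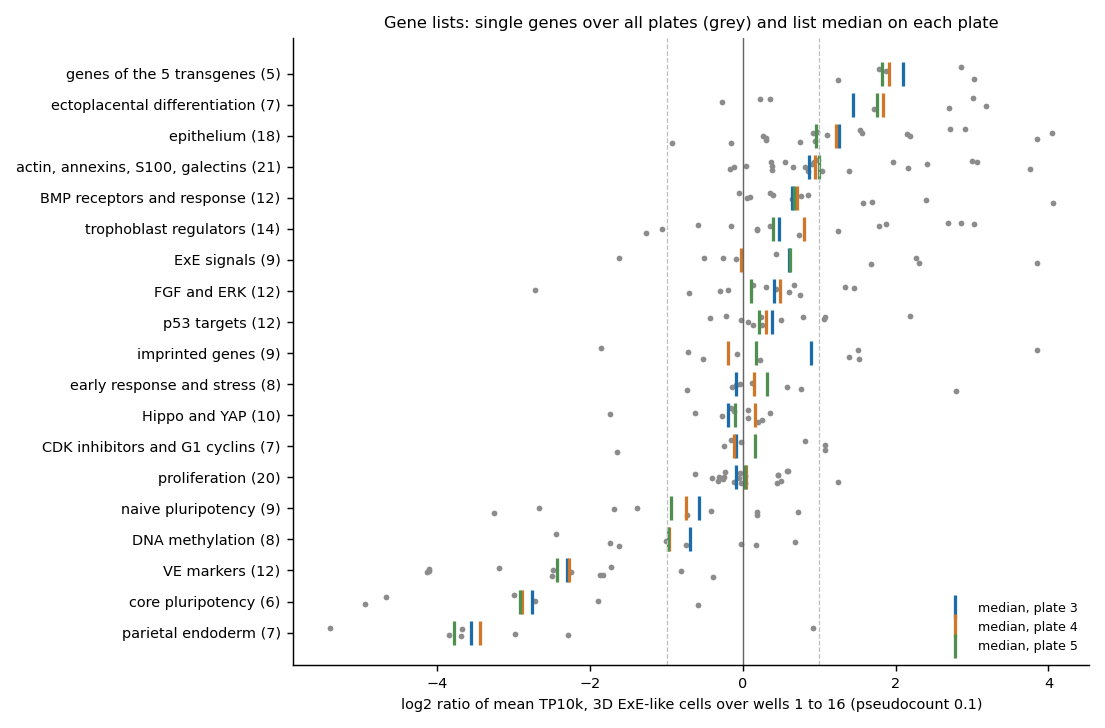
Log2 ratio of mean TP10k of the ExE-like cells over wells 1 to 16 (x axis, pseudocount 0.1) for listed genes (grey points, all plates together) and the list median on plates 3, 4 and 5 (coloured bars), with the number of tested genes beside each list name; dashed lines mark 2-fold. Of the lists drawn, the medians of the transgene, ectoplacental, epithelial and actin lists lie furthest up, and those of the parietal endoderm, core pluripotency and VE lists furthest down.

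Pluripotency genes were lower, though not all of them. Of 6 core genes, 5 were lower than wells 1 to 16 on every plate, with a median log2 ratio of -2.86. Against both blocks 1 was lower. Of the 6 genes, 2 reached 25% of the ExE-like cells, and the others were tested only through wells 1 to 16. *Pou5f1* was at 0.254, 0.111 and 0.446 TP10k and found in 11.9% of ExE-like cells, while wells 1 to 8 had 14.2 TP10k and wells 9 to 16 had 4.53. *Tdgf1*, a NODAL co-receptor gene, was found in 2.38% and *Gdf3* in 3.57% of ExE-like cells. In wells 9 to 16 *Tdgf1* was about as rare, at 0% to 6.06% of cells by well number. *Utf1* was found in 36.0% at 1.21 TP10k, against 7.88 and 1.69. *Sox2* was the core gene that did not reach 2-fold.

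Of 9 tested genes of naive pluripotency, 4 (*Nanog*, *Fbxo15*, *Klf2*, *Klf4*) were lower and none higher, with a median of -0.73. *Nanog* was found in 32.4% of ExE-like cells, but at a mean of 0.115 TP10k against 3.83 in wells 1 to 8. In wells 9 to 16 it was found in 24.8% at 0.0845 TP10k. On plates 3, 4 and 5 the share was 38.1%, 15.7% and 42.7% in the ExE-like cells and 32.4%, 20.6% and 20.6% in wells 9 to 16, so that the order turned on plate 4. *Klf5* and *Tfcp2l1*, which trophoblast expresses as well, were found in 94.0% and 66.4% of ExE-like cells. Of the primed genes, *Otx2* and *Nodal* were lower, 2 of 3 tested, with a median of -1.62. None of the 7 listed primed genes reached 25% of the ExE-like cells, so these were tested only through wells 1 to 16. None was lower than both blocks.

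DNA methylation genes were lower in part. *Dnmt3a*, *Dnmt3l* and *Tet1* were lower than wells 1 to 16 on every plate, 3 of 8, with a median of -0.88. *Dnmt3a*, a de novo methyltransferase, was at 0.761, 0.826 and 0.772 TP10k against 3.29 and 1.95, and its cofactor *Dnmt3l* at 0.252, 0.318 and 0.420 against 1.73 and 2.75. The maintenance genes *Dnmt1* and *Uhrf1* had log2 ratios of -0.03 and 0.17, and *Tet3* had 0.68.

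Among VE genes 10 of 12 tested were lower than wells 1 to 16 and none higher, with a median of -2.37. Against both blocks 1 was lower. Of the 15 listed genes, 2 reached 25% of the ExE-like cells, so most were tested only through wells 1 to 16. *Amn* and *Cubn*, which are in this count and median, were used by the selection and are given as a description. With no well removed for them, their log2 ratios were -2.28 and -2.26 instead of -4.11 and -4.14. The summed level of the list was 8.24, 9.35 and 7.36 TP10k in the ExE-like cells, most of it *Apoe*. It was 33.7, 28.7 and 29.4 in wells 1 to 8 and 73.4 to 83.1 in wells 9 to 16. *Sox17* was found in 0.298% of ExE-like cells, *Sox7* in 3.57% and *Dab2* in 11.9%. The 17 removed wells, of which 13 had *Sox17*, enter neither these shares nor the count and median of the list. *Gata4* stood out among the VE genes. It was found in 35.4% of ExE-like cells at 0.328 TP10k, against 98.1% at 2.90 TP10k in wells 9 to 16 and 3.82% at 0.0246 TP10k in wells 1 to 8.

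*Cdx2* was found in 79.0% of the 119 cells with *Gata4* (70.6 to 85.9) and in 56.7% of the 217 without (49.8 to 63.4). These shares leave out the 17 removed wells, of which 16 had *Gata4* and 0 had *Cdx2*. On plate 3 the shares were 83.3% with and 67.2% without *Gata4*. *Cdx2* was found more often in cells with more genes. On plate 4 it was in 46.3% of cells below the plate's median number of genes and in 70.4% at or above it. The part of depth in the joint finding of *Gata4* and *Cdx2* was not tested.

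Of 7 tested parietal endoderm genes, which mark the other primitive endoderm derivative, 6 were lower than wells 1 to 16. None was higher, and the median was -3.68. None was lower than both blocks. The summed level of the list was 4.69, 4.62 and 3.42 TP10k on plates 3, 4 and 5. In wells 1 to 8 this sum was 2.41, 1.88 and 2.00, and in wells 9 to 16 it was 110, 95.1 and 88.6. *Sparc* was at 2.75, 2.68 and 1.36 TP10k against 59.9 in wells 9 to 16, and *Col4a1* at 0.0928 against 16.1. The 17 removed wells, which are not in these means, had *Sparc* at 43.6 and *Col4a1* at 10.1 TP10k. With them kept, the log2 ratio to wells 1 to 16 was -2.81 instead of -3.69 for *Sparc* and -3.61 instead of -5.41 for *Col4a1*, and *Col4a1* was at -2.99 with no minimum of genes. *Plat*, at 0.587 TP10k, was not lower than in wells 9 to 16 (0.527). Of 9 fibroblast genes only *Fn1* was tested, at 0.709 TP10k and not 2-fold apart on all plates, while *Col1a1* and *Col3a1* were found in 2.98% and 0.595% of cells and *Postn* in 0. Of other lineages, *Pecam1* was lower, with a log2 ratio of -1.36 that turned to 1.52 with no minimum of genes, the only other tested gene being *Eomes*, and *Tal1*, *Hbb-y*, *Hba-x* and *Myod1* were at 0 in all ExE-like cells.

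Cell cycle genes differed little as a group. Over all tested genes, 3.03% were higher and 2.86% lower than wells 1 to 16. Of 20 proliferation genes only *Rrm2*, a subunit of ribonucleotide reductase, was 2-fold higher, at 4.84, 5.47 and 5.93 TP10k against 2.91 and 1.54, and none was lower, with a median of -0.04. The log2 ratio of *Rrm2* was 1.24, and 0.47 with no minimum of genes. *Mki67*, *Top2a*, *Pcna* and *Mcm6* had log2 ratios of -0.05, 0.03, -0.32 and -0.25. Of 7 tested G1 cyclins and CDK inhibitors, *Ccnd1* was lower and none higher, with a median of -0.03. *Ccnd3* was at 5.52 TP10k against 3.23 and 1.93, and *Cdkn1a*, the gene of p21, at 1.65, 2.27 and 2.11 TP10k against 0.921 and 0.874, and neither reached 2-fold on all plates. *Cdkn1c*, the gene of p57 and a regulator of giant cell formation, was found in 16.7% of ExE-like cells and was not tested.

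The remaining lists held few differences, beside 3.03% higher and 2.86% lower over all tested genes. Of 12 p53 target genes *Perp* was higher, with a median of 0.24. Of 8 early response and stress genes *Nupr1*, a stress-induced nuclear protein gene, was higher, at 12.7, 13.4 and 18.7 TP10k against 2.80 and 1.32, while the other 7 were not 2-fold apart and the median was 0.04. Of 10 Hippo and YAP genes *Amot* was lower and none higher, with a median of -0.02, and *Yap1*, *Tead1* and *Tead4* had log2 ratios of 0.25, 0.35 and -0.15. Of 9 imprinted genes *Igf2*, *Peg3* and *Sgce* were higher and *Mest* was lower, with a median of 0.22. *H19*, the maternally expressed neighbour of *Igf2*, was found in 4.17% of ExE-like cells.

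By absolute level the most abundant transcripts of the ExE-like cells were those of *Ftl1*, at 163 TP10k, *Eef1a1*, *Actb*, *Ubb*, *Actg1*, *Ppia*, *Hspa8*, *Npm1*, *Slc25a5* and *Mt1*. Of these only *Mt1*, a metallothionein gene, was 2-fold above wells 1 to 16 on every plate, with log2 ratios of 1.24, 1.08 and 1.24. *Ftl1*, the ferritin light chain gene, was lower than in both blocks at 237 and 236 TP10k, by less than 2-fold. *Ftl1*, like the prolactin family genes above, has near-identical copies in the genome, and its level is uncertain to that extent.

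The ExE-like cells varied among themselves most in *Spp1*, *Sct*, *Ifitm1*, *Pla2g7*, *Selenbp1*, *Krt18*, *Krt8*, *Lgals3*, *Saa3* and *Car2*. These had the largest SD of ln(TP10k + 1) among genes found in 20% to 80% of the cells of each plate, from 1.66 for *Spp1* to 0.997 for *Car2*. *Spp1*, the gene of the secreted protein osteopontin, was found in 54.2% of ExE-like cells with means of 15.2, 12.6 and 25.9 TP10k. *Ifitm1*, an interferon-induced membrane protein gene, was found in 59.2% and, at 7.95 TP10k, was not above wells 1 to 8 (11.3). Of these 10 genes, *Sct*, *Pla2g7*, *Selenbp1* and *Saa3* were also among the 15 highest against both blocks.

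Pairs of genes across the 336 cells fell into opposed groups, described by Pearson's r of ln(TP10k + 1) with its range over the plates. The cells share their pool, and their levels follow depth in part. *Elf5* went with *Bmp4* (r = 0.62, 0.58 to 0.64), *Eomes* (0.53, 0.43 to 0.64) and the carbonic anhydrase gene *Car2* (0.64, 0.54 to 0.76), and *Hand1* with *Plet1* (0.71, 0.67 to 0.78). *Pla2g7* went with *Selenbp1* (0.61, 0.59 to 0.66), *Spp1* (0.57, 0.51 to 0.60), *Lgals3* (0.55, 0.45 to 0.61) and *Ifitm1* (0.54, 0.50 to 0.59). Between the groups r was negative, as for *Pla2g7* with *Car2* (-0.63), *Plet1* (-0.57), *Hand1* (-0.56), *Igf2* (-0.55), *Bmp4* (-0.53) and *Elf5* (-0.52). The level of *Cdx2* had r = -0.03 with that of *Elf5*, 0.23 with *Eomes*, -0.27 with *Igf2*, 0.37 with *Ifitm1* and 0.24 with *Pla2g7*.

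In shares, *Pla2g7* was found in 46.2% of the 117 ExE-like cells with *Elf5* (36.9 to 55.6) and in 87.7% of the 219 without (82.6 to 91.7). On plates 3, 4 and 5 it was in 52.4%, 38.2% and 46.3% of the cells with *Elf5* and in 85.5%, 91.9% and 85.5% of those without, so that the order held on each plate. *Selenbp1* was found in 35.9% and 75.8%, respectively. *Bmp4* was found in 58.1% of cells with *Elf5* (48.6 to 67.2) and in 16.4% without, and *Hand1* in 57.3% and 12.8%.

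Depth moved with these patterns. Within plates r with the number of genes per cell was 0.21 to 0.28 for *Elf5* and -0.28 to -0.35 for *Pla2g7*. *Elf5* was found in 18.5% of the plate 4 cells below the median number of genes and in 44.4% of those at or above it, and plate 5 had 23.6% and 50.9%. *Id2* hardly changed in this split, with 94.9% and 96.6% on plate 3. The part of depth in the opposed groups was not tested.

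**Figure D5:**
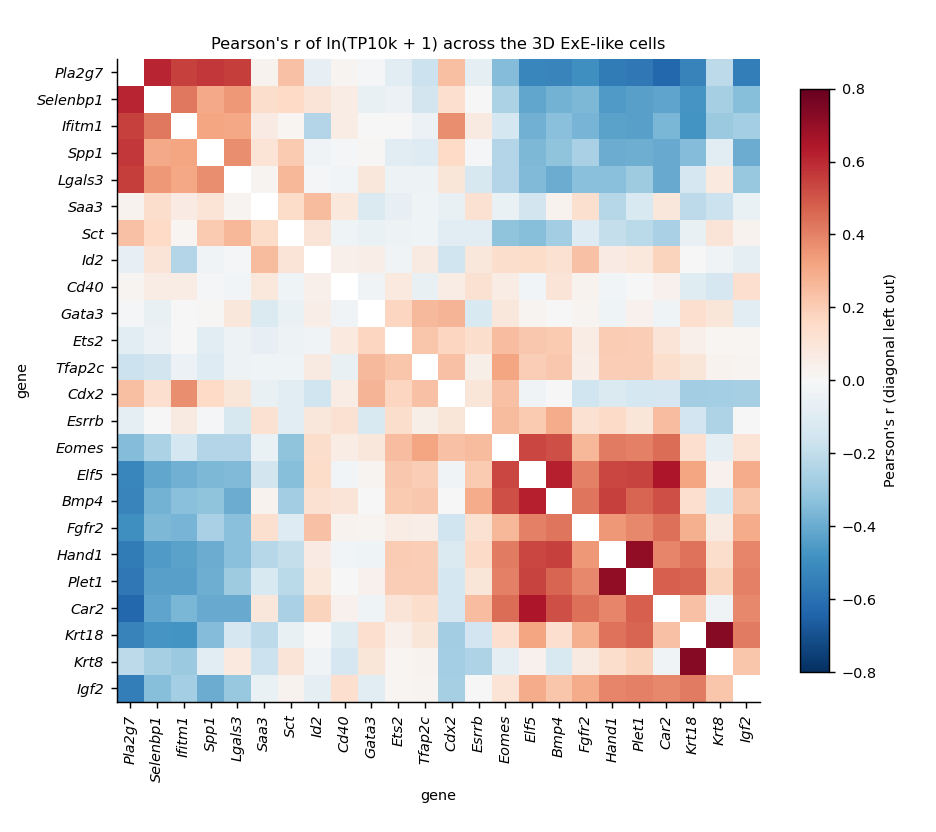
Pearson's r of ln(TP10k + 1) for pairs of genes (both axes) across the 336 ExE-like cells, from blue (negative) to red (positive). *Elf5*, *Bmp4*, *Hand1*, *Plet1* and *Car2* are positive with each other and negative with *Pla2g7*, *Selenbp1* and *Ifitm1*.

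Some cells went against their wells. Of the ExE-like cells 6 had at least 3 of the 5 Epi genes *Tdgf1*, *Gdf3*, *Fgf4*, *Utf1* and *Pou5f1*, 5 of them on plate 3 and 1 on plate 5. When they were left out together with the compared cells that had at least 3 of *Cdx2*, *Elf5*, *Eomes*, *Bmp4* and *Id2*, 265 genes were higher and 251 lower than in wells 1 to 16, and 173 and 28 against both blocks. This setting was chosen after the data had been seen. *Pou5f1* was found in 40 ExE-like cells, of which 65.0% had *Cdx2* (48.3 to 79.4), against 64.5% of the 296 others (58.8 to 70.0).

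Set beside the 141 2D iTSC, which were another culture and plate and had a median of 8537 genes per cell, *Id2* was at 9.41 TP10k in the ExE-like cells and 7.42 in iTSC, *Igf2* at 6.77 and 7.43, and *Cdx2* at 0.657 and 0.313. *Pla2g7* was at 9.09 and 0.512 TP10k, *Selenbp1* at 5.35 and 0.197, and *Spp1* at 17.9 and 0.229, while *Sct* was at 13.5 and 7.50. Culture, plate and depth cannot be told apart there.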

How the data were processed

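Single cells were sorted into plates and sequenced with SMART-seq2, which keeps no strand and has no molecular identifiers. The authors demultiplexed the reads with bcl2fastq 2.20, pseudoaligned them to GRCm38 (Gencode vM16) with kallisto and summed them per gene with tximport. They deposited TPM for 20999 genes, without mitochondrial, ribosomal and pseudogenes according to their methods. The TPM of an ExE-like cell summed to between 113942 and 780752 (median 648791). Of 1931 columns, 499 were not used. TPM keep no depth, so cells could not be thinned.

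From the deposited values, each cell was rescaled to 10000. Ratios of mean TP10k with a pseudocount of 0.1 were formed on each plate, and no test was made because there is 1 sample. The replicate names are plates and wells, not cultures. The calls of 2-fold differences, not the ranking, were checked on a random split of the ExE-like cells. In it the values of randomly chosen genes had been raised or lowered. Positions are those of Gencode vM21 (GRCm38) and upstream stretches those of RefSeq (GRCm38.p6). Members, lists and rules were chosen with earlier results of these data known. Named genes were the given markers, the genes of the transgenes, *Cd40*, the ExE genes of the study, the 3 most different in each direction of each list, the 15 highest and 10 lowest against both blocks, the 10 most abundant and the 10 most variable. Not all of these named genes appear in the text. Other list genes were named to show which were at or near 0, not 2-fold apart or too rare to be counted, and *Lgals3* with the variable genes. A gene of the trophoblast regulator list is not reported here, though the list's count and median include it. Alternatives were other minima of genes, removal rules, filters, scales and pseudocounts and leaving out each plate. Python 3.11.15 was used with numpy 2.4.6, scipy 1.17.1, pandas 2.3.3 and matplotlib 3.10.9.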

Additional observations from a re-analysis of the deposited data

How the results depend on the processing

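Of 78 named genes that were 2-fold apart on every plate, 1 changed its sign under a setting. This was *Pecam1*, with a log2 ratio of 1.52 instead of -1.36 when no minimum of genes was set. A change of the pseudocount cannot turn the sign of a gene. By size, 105 of 150 named genes moved by more than their SD over the plates with a pseudocount of 1 TP10k. With 0.01 TP10k 70 moved, and with no minimum of genes 41. Of 25 list medians, 5 changed sign under a setting, and none of the 15 of at least 0.5 in size did. The pseudocount moved the counts most. With 1 TP10k, 45 genes were higher and 57 lower than in wells 1 to 16, and 36 and 4 against both blocks. With 0.01 TP10k, 438 were higher than in wells 1 to 16, and 265 and 60 were higher and lower than both. Leaving out each plate in turn gave 280 to 315 higher and 263 to 292 lower genes, 176 to 203 and 31 to 40 against both, as fewer plates had to pass. It left 218 to 228 cells, with *Cdx2* in 58.7% to 67.5%, *Tfap2c* in 54.6% to 64.6%, *Id2* in 94.0% to 95.2%, *Igf2* in 76.3% to 80.1% and *Krt8* in 71.6% to 75.4%. Without plate 3, the deepest, the shares of *Cdx2* and *Tfap2c* were lowest. Cells of 4000 to 6000 genes numbered 189, with *Tfap2c* in 55.0%. With no minimum of genes *Id2* was in 88.0%, *Igf2* in 71.7% and *Krt8* in 68.7%. No paired analysis was possible because the 3D cells are 1 sample and no test was made.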
